A study of Mus musculus with 50 samples.

Results

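Dexamethasone-dependent glucocorticoid receptor (GR) sites of 3T3 cells, a mouse fibroblast line, numbered 2248. They were selected on their peak calls: overlapping peaks of the 2 libraries of 250000 dexamethasone-treated nuclei were merged, both libraries had to hold a call, and none of the 4 vehicle-treated libraries (250000 and 50000 nuclei) could hold an overlapping one. The 2 dexamethasone lists merged into 6702 regions, so the sites made up 33.5% of them. A further 637 regions were called in both dexamethasone libraries and in at least 1 vehicle library (vehicle-shared sites below), and 3556 were called in 1 dexamethasone library and in no vehicle library. All 39 peak lists of the series together merged into 50410 regions. Because these 3T3 calls chose the sites, their values in the 250000-nucleus libraries are given as a description, without a test.

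Binding of GR and of the nuclear factor I protein NFIA was mapped by CUT&RUN: a nuclease is brought to the protein by its antibody and cuts free the DNA around it, which is then sequenced. The 3T3 cells were kept in medium without phenol red and with serum stripped of steroids, then given vehicle or 200 nM dexamethasone (DEX), a synthetic glucocorticoid, for 2 h. The brain libraries came from sorted nuclei of primary visual cortex (V1) at postnatal day 14, each a pool of several mice. Astrocyte nuclei were labelled in wild-type mice by a virus that carries a nuclear green fluorescent protein and an inactive recombinase (ΔCre) under the astrocyte promoter GfaABC1D, and these animals were normally reared under a cycle of light and dark (NR) or dark-reared (DR). GRfl/fl mice, whose receptor gene can be removed by Cre, received ΔCre (GR-con) or active Cre (GR-KO) from the same promoter, so that only infected astrocytes could lose the receptor. Nuclei of oligodendrocytes, inhibitory neurons and excitatory neurons came from Olig2-Cre, Slc32a1-Cre and Slc17a7-Cre mice with Sun1-GFPfl/fl, in which each Cre line sets which cells are labelled (the labels write the reporter as fl/fl, the methods as carried on 1 allele). All groups other than DR were normally reared. GR was mapped in all of these groups (3 libraries each, 2 for GR-con and GR-KO) and NFIA in NR astrocytes and the other V1 cell types (3 libraries each). The labels give wild type for the astrocyte NFIA libraries, although the methods mention astrocyte NFIA beside the GRfl/fl mice.

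Peak numbers ranged from 189 to 1035 in the vehicle 3T3 lists and from 720 to 5010 in the DEX lists. In V1 they ranged from 2262 to 21539 for GR in NR astrocytes, from 28 to 293 in DR, from 6792 to 7761 in GR-con, from 413 to 1846 in GR-KO, from 4 to 4563 in other cell types, from 22373 to 27143 for NFIA in astrocytes and from 1 to 4173 for NFIA in other cell types. Read depth is unknown from these lists. A site without a peak is one where none passed the caller's threshold, and that depends on depth and on the control library as well as on binding.

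GR is a nuclear receptor held in the cytoplasm by chaperones until a glucocorticoid binds it. The liganded receptor enters the nucleus and binds the glucocorticoid response element (GRE), an inverted repeat of hexamers read by a receptor dimer, or is drawn to DNA by other factors. Which of its possible sites it occupies is known to differ between cell types, since it mostly binds chromatin that other proteins already keep open. In fibroblasts such proteins include AP-1 (dimers of Fos and Jun proteins) and TEAD factors. NFIA belongs to a family that binds TTGGC half-sites and is known for its part in making astrocytes.

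Sequences at the summits are shown first, since the search for GREs below rests on them. These are the 8 highest-ranked sites, by the mean of their ranks in fold over control in both DEX lists, with a full GRE, here written GNACANNNTGTNC, within 50 bp of the summit. Each line gives 61 bases of the plus strand of mm10, 5′ to 3′, centred on the element, which is in capitals. The name is that of the gene the site lies in or, failing that, the protein-coding gene with the nearest start.
Fkbp5 (chr17:28420298-28420358): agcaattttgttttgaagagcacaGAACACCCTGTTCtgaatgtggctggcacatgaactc
Per1 (chr11:69097053-69097113): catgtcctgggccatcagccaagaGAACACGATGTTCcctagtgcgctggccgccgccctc
Sgk1 (chr10:21785872-21785932): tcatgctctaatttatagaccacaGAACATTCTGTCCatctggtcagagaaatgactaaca
Ltbp1 (chr17:75275532-75275592): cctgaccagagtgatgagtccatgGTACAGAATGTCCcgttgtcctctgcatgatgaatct
4930432M17Rik (chr3:121605037-121605097): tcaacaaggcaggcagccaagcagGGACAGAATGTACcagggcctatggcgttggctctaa
Sema3d (chr5:12616387-12616447): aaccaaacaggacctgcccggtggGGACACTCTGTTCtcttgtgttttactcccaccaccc
Morc2a (chr11:3624509-3624569): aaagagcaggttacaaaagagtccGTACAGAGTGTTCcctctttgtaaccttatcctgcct
Ctnna3 (chr10:63571859-63571919): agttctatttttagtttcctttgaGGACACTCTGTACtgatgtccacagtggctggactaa

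A second kind of summit held an AP-1 site (TGANTCA) and neither the GRE core (ACANNNTGT) nor a GRE half-site (AGAACA). The highest-ranked 4 of these are shown to the same layout, with the AP-1 site in capitals. For Lurap1l the printed bases, centred on the AP-1 site, do not reach the summit.
Med13l (chr5:118480184-118480244): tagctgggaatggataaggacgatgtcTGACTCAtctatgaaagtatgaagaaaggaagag
Kif6 (chr17:49751029-49751089): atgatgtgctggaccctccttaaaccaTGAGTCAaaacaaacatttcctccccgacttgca
Tspan2 (chr3:102667872-102667932): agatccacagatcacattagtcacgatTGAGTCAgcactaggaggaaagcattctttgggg
Lurap1l (chr4:80972080-80972140): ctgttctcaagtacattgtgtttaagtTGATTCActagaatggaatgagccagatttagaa

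A full GRE lay in the 101 bp around the summit at 149 of the 2248 sites, or 6.63% (Wilson 95% interval 5.67 to 7.73; all such intervals cover counting error only). It was found in 0.334% of windows of the same width 1 kb to either side (15 of 4496), in 0.471% of vehicle-shared summits (3 of 637; interval 0.160 to 1.38) and in 0.658% of GR sites of NR astrocytes called in at least 2 of 3 libraries (82 of 12458). Another motif can overlap the element. The looser core ACANNNTGT, which every full GRE contains, was present at 14.9% of sites against 3.23% of flanks and 5.34% of vehicle-shared summits. A half-site AGAACA was present at 21.1%, against 9.14% and 10.5%. Together, 674 sites (29.98%) held the core or a half-site, and 1574 held neither.

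AP-1 was the most frequent of the 13 motifs searched on both strands. It lay at 595 sites, or 26.5% (24.7 to 28.3), against 3.56% of flanks, and here the vehicle-shared summits were higher, with 36.1% (32.5 to 39.9). Only 2.34% of NR astrocyte GR summits held it. Among sites with a full GRE, 12 of 149 also had AP-1 (8.05%; interval 4.67 to 13.5), compared with 27.8% (25.9 to 29.7) of those without a full GRE. The TEAD motif GGAATG was found at 13.8% of sites, 5.29% of flanks and 11.9% of vehicle-shared summits.

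The remaining motifs followed. The NFI half-site TTGGCA was found at 11.1% of sites, 5.07% of flanks, 11.8% of vehicle-shared summits and 12.3% of NR astrocyte summits. RUNX (TGTGGT, 10.4% of sites against 8.21% of flanks), C/EBP (TTGCNNAA, 6.09% against 4.29%) and the E-box CAGCTG (6.49% against 4.87%) were near their flanks. The homeobox site TAATTA was rarer than in flanks (16 sites, 0.712%, against 2.76%). The CREB site TGACGTCA (5 sites) and the CTCF core CCANNAGNNGGC (10; 0.445% against 0.890% of flanks) were rare, and the NFI full site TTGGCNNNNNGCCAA was matched at no site. No GRE core, half-site, AP-1 or TEAD match was found at 950 sites, 42.3%. A match is a string of letters, not a measured contact, and sites selected for 2 DEX calls without a vehicle call are a chosen set.

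**Figure D1:**
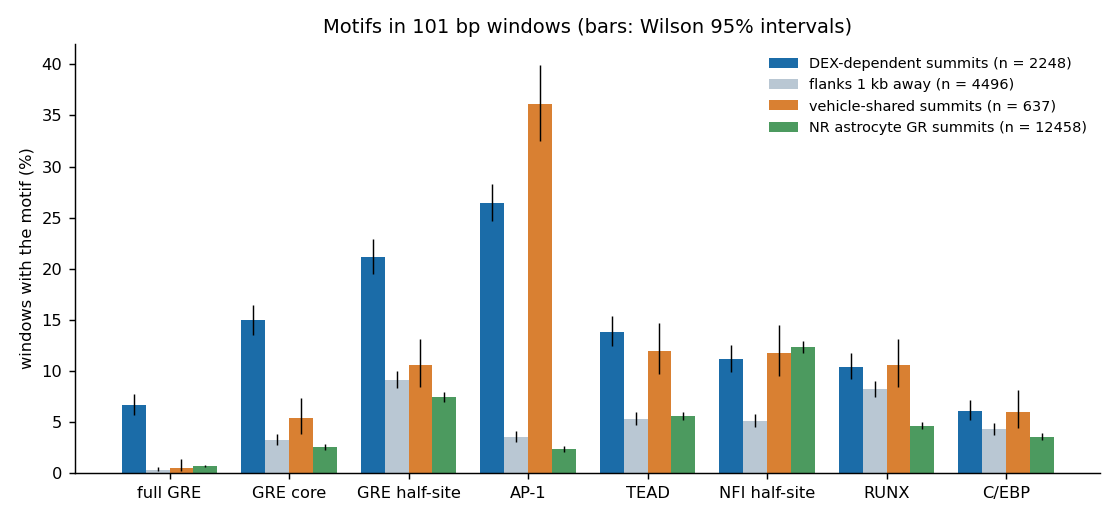
Share of 101 bp windows (%) that hold each motif, for summits of DEX-dependent sites, their flanks 1 kb away, vehicle-shared summits and GR summits of NR astrocytes; error bars are Wilson 95% intervals. A full GRE is found at 6.63% of DEX-dependent and 0.471% of vehicle-shared summits, whereas AP-1 is found at 26.5% and 36.1%.

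Matches were sought only in the 101 bp around the summit, which by itself keeps every distance short. The centre of the full GRE was a median of 16 bp from the summit (quartiles 8 and 28 bp). Of the 149, 105 (70.5%) lay within 25 bp. AP-1 sites were spread alike, with a median of 18 bp and 65.7% within 25 bp. These figures were not compared with random placement in the window. Inside it, the 10 bp bins on either side of the summit held 29 and 18 full GREs. The bins from 30 to 40 bp away held 14 and 9. For AP-1 the numbers were 91 and 93 against 36 and 46. No site held more than 1 full GRE in its window. The 149 matches comprised 111 distinct sequences when both strands were read as 1, and 80 of these occurred once. No sequence occurred more than 3 times; those found 3 times included GAACATTCTGTCC, shown above near Sgk1, and GAACAGAATGTTC. At the second base of the element, read from either strand, which the search left free, A was the most common letter (38.6% of 298 half-sites, with G at 26.8%), as in the GAACA that opens the Fkbp5, Per1 and Sgk1 elements.

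**Figure D2:**
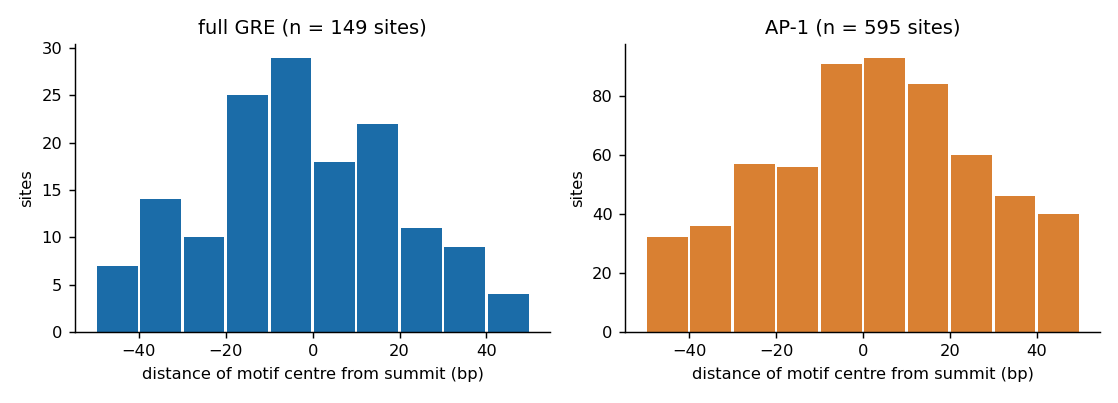
Number of sites by the distance (bp) from the summit to the centre of the full GRE (149 sites) or of the AP-1 site nearest the summit (595 sites), in 10 bp bins. Both were sought only in the 101 bp around the summit, which bounds the distance, and have medians of 16 and 18 bp. For both, the bins beside the summit hold more sites than those from 30 to 40 bp away.

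Fold over control, a ratio that the authors' peak caller gave to each peak, had a median of 6.94 in DEX replicate 1 and 6.99 in DEX replicate 2, and ranged from 3.47 to 25.3 and from 3.51 to 25.0. Across the 2248 sites the log2 folds of both replicates correlated at r = 0.50 (Spearman's rho = 0.44), a description over sites of the same 2 libraries. The sites were a median of 206 bp long, and 960 (42.7%) had summits within 25 bp of each other in both libraries. Vehicle-shared sites had higher medians, 8.27 and 8.07. Sites called in a single DEX library had lower ones, 5.45 and 5.65.

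The edges of the selection were soft. The weakest call among the sites, near Dip2b, had a fold of 3.51 and a q of 0.0496 in replicate 2. The strongest region left out for want of a second call, near Actn4, had a fold of 14.7 in replicate 1 and none in replicate 2. Beside Klf3, a site kept its place although a vehicle peak lay 7 bp from its edge, and 45 sites (2.00%) had a vehicle peak within 1 kb. The median gap to the nearest vehicle peak was 277065 bp.

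The 50000-nucleus DEX libraries took no part in the choice. Replicate 1 held a peak at 434 sites (19.3%) and replicate 2 at 793 (35.3%), a mean of 27.3% ± 11.3 (SD, n = 2). Both held one at 318 sites (14.1%), compared with 7.68% of all 6702 DEX regions, and 1339 sites had none. Of the peaks these libraries called, 61.4% and 58.1% lay on the sites. At regions of a single 250000-nucleus library, 1.29% and 3.66% had a peak in them. At vehicle-shared sites, 31.7% and 52.3% had one.

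Recovery and the GRE both followed the fold. When the sites were divided into 4 classes of 562 by mean rank, 40.2% of the highest class were called in both 50000-nucleus DEX libraries, and then 11.9%, 2.67% and 1.78%. A full GRE was present in 12.8%, 6.76%, 3.91% and 3.02%. AP-1 did not follow this order (23.7%, 27.6%, 29.9% and 24.7%), nor did TEAD (14.2% to 13.2%). Of sites with a full GRE, 34.2% (27.1 to 42.2) were called in both 50000-nucleus libraries, against 12.7% (11.4 to 14.2) without. The vehicle-shared sites had the higher median fold and the rarer GRE.

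**Figure D3:**
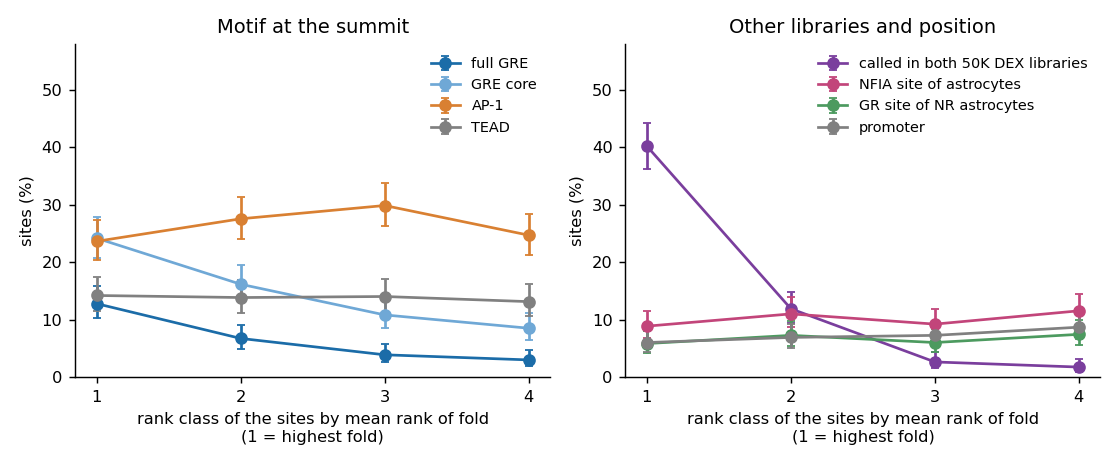
Share of sites (%) in each class by mean rank of fold in both DEX libraries (class 1 highest, 562 sites each) with a motif at the summit (left) or a call in other libraries or a promoter position (right); error bars are Wilson 95% intervals. The full GRE falls from 12.8% to 3.02% and recovery in both 50000-nucleus libraries from 40.2% to 1.78%, whereas AP-1 and GR sites of NR astrocytes show no such fall.

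The strongest site of all lay in an intron of Fkbp5 (chr17:28420191-28420728), which encodes a co-chaperone that lowers the receptor's affinity for hormone. Its fold was 25.3 and 21.3 in the 250000-nucleus DEX replicates, 15.9 and 14.9 in the 50000-nucleus ones, and its full GRE is printed above. In V1 it was called once, in GR-con replicate 1, with a fold of 7.22. All of the 3T3 DEX libraries were therefore high here, and 30 of the 31 V1 libraries held no peak.

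Next came Hif3a (chr7:17058193-17058514), which encodes a hypoxia-inducible factor subunit. This site lay within Hif3a, 230 bp from the start of the transcript 4833404L02Rik, and reached 25.0 and 17.6 in DEX replicates 1 and 2. Per1, a repressor in the circadian clock, held the third in an intron (chr11:69096932-69097132), with folds of 19.2 and 20.3. Both of these were also called in all 3 NR and both GR-con libraries.

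The fourth (chr10:21785792-21786040; folds 19.0 and 19.5) was intergenic, 96289 bp from the nearest start of Sgk1, a kinase that regulates ion transport. It was called in both 50000-nucleus DEX libraries (10.6 and 12.9) and in no V1 library. The other 8 of the 12 highest were in introns of Fggy, Gm20696 (a model that overlaps Foxp1), Ltbp1 and Rad51b, between genes near Wdr75, Prickle1 and Med13l, and in Nek7 at the start of the transcript Gm37101. Their folds ranged from 15.1 (Med13l, replicate 1) to 21.9 (Gm20696, replicate 2). All 8 were called in both 50000-nucleus DEX libraries, and none in V1, where 84.3% of all sites had no peak.

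Genes near the sites were counted by any annotated start within 50 kb, and 2128 of 21911 protein-coding genes (9.71%) had one. Of 30 established glucocorticoid targets, 19 did (63.3%). A vehicle-shared site, of which there were fewer, lay near 4 (13.3%, against 3.57% of all protein-coding genes). The list was compiled from general knowledge of the pathway with earlier results of these data known, so its count is a description. A total of 58 sites lay near these genes, with median folds of 7.60 and 8.20 in DEX replicates 1 and 2 (6.94 and 6.99 over all sites), and 10 had a full GRE.

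Targets that check inflammatory and growth signals were among them. Dusp1, which removes phosphate from MAP kinases, had 8 sites, the best (chr17:26535266-26535526; folds 12.01 and 10.8) with a full GRE and 25973 bp from a start. Nfkbia, the inhibitor that holds NF-κB in the cytoplasm, had 3, with 12.3 and 9.61 at the best. Tsc22d3, a leucine zipper protein of anti-inflammatory action, had 2; the better lay 31157 bp from a start (chrX:140511367-140511511; folds 8.35 and 7.31). Errfi1, which restrains the EGF receptor, had 1 low-ranked site (5.69 and 5.14).

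Metabolic and transcriptional targets followed. Mt1 and Mt2, the metal-binding metallothioneins, shared a best site 808 bp from a start of Mt2 (chr8:94171252-94171856; folds 11.99 and 13.3) that held a full GRE, AP-1 and TEAD. Cebpd, a transcription factor of early fat cell differentiation, had 1 (chr16:15890606-15890718; 12.5 and 11.3). Pdk4, a kinase that shuts down pyruvate dehydrogenase, had 4 (best 10.6 and 9.99), and the transcription factor gene Klf9 had 2 (best 7.94 and 11.9). Glul, which encodes glutamine synthetase, had 1 in its promoter (chr1:153901552-153901662; 5.997 and 8.33) with a full GRE, and Fam107a had 1 at 34 bp from its start with a full GRE (6.13 and 6.69). Sgk1, Gadd45g, Sult1a1, Cdkn1a and Rgs2 made up the rest with Fkbp5, Hif3a and Per1.

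The 11 targets without a site within 50 kb were Zbtb16, Klf15, Cebpb, Ddit4, Angptl4, Lcn2, Tat, Hsd11b1, Bcl6, Cdkn1c and Tiparp. Zbtb16 held 4 sites deeper in introns. The strongest (chr9:48736398-48736664; folds 13.7 and 16.1, rank 31) lay 99393 bp from its start, had a full GRE and was called in NR replicates 1 and 3 (8.32 and 9.17) and both GR-con libraries (5.30 and 6.09).

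Chaperones that fold and release the receptor were represented by Hspa8 (site ranked 19, folds 18.4 and 13.4), Hsp90aa1 (11.8 and 8.47), Stip1 (5.88 and 7.96) and Fkbp5, 4 of 12 listed genes with the receptor itself, Nr3c1, not among them. A vehicle-shared site lay near 1 of these 12 genes and near 3 of 20 clock genes. Of all protein-coding genes, 9.71% had a DEX-dependent and 3.57% a vehicle-shared site. In the clock list 7 of 20 genes had a DEX-dependent site. These were Per1, Arntl (10.6 and 10.2), Nfil3 (11.05 and 9.89, with a full GRE), Tef (8.33 and 11.1, with a full GRE), Per2, Bhlhe40 and Nr1d1. The Tef site, 18760 bp from a start, was also called in NR astrocyte replicates 1 and 3 (9.62 and 9.18), both GR-con libraries (6.20 and 7.50) and all 3 NFIA astrocyte libraries.

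Genes of the cell's own identity stood near the sites as well. Of 20 matrix genes, 11 had one, led by Lox, the enzyme that crosslinks collagen (15.9 and 12.1), and Ccn1, a matricellular protein (12.5 and 10.5). Of 20 cytoskeleton and adhesion genes, 10 had one, led by the integrin gene Itga5 (11.9 and 11.9) and by Anxa2 (10.2 and 15.8). A vehicle-shared site lay near 6 of the 20 matrix genes and 4 of the 20 cytoskeleton and adhesion genes. For all protein-coding genes the shares were 9.71% with a DEX-dependent and 3.57% with a vehicle-shared site. Nearness to these lists was therefore not particular to the DEX-dependent sites. Among 19 DEX-dependent sites near matrix genes none held a full GRE, and 1 of the 16 near cytoskeleton and adhesion genes did. None of these 19 or 16 sites was a GR site of NR astrocytes. Over all sites the shares were 6.63% with a full GRE and 6.67% with a GR site of NR astrocytes, so an absence in sets this small says little.

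Fat cell genes had a site in 6 of 15 cases (Pparg, the master regulator, at 6.82 and 7.46), the Fos and Jun family in 2 of 11 (Jun and Junb) and inflammation and cytokine genes in 3 of 20 (Nfkbia, Lif and Csf1). Astrocyte identity genes had one in 3 of 20 (Slc1a3, Glul and Sox9), neuron identity genes in 2 of 20 (Camk2a and Dlx2), and none of 20 housekeeping genes did. Shares for the astrocyte (15.0%) and neuron (10.0%) lists can be read beside 9.71% of all genes.

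Sites clustered at a few genes. Of the 2128 genes, 1549 had 1 site, 548 had 2 to 4 and 31 had 5 or more. Fkbp5 had the most, 20 over 152 kb (chr17:28393881-28545854), of which 17 lay inside the gene. Their folds ran from 4.12 to 25.3 in DEX replicate 1 (median 6.99), 2 held a full GRE and 5 the core, and 8 were called in at least 1 library of 50000 nuclei. In V1, 3 of the 20 had any peak, close to the 15.7% of all sites. The one called most widely was not the strongest but a site at an internal start (chr17:28486176-28486405; folds 5.45 and 5.87 in 3T3 cells), with peaks in 3 GR and 5 NFIA libraries.

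Nedd9, which encodes an adhesion scaffold, came next with 11 sites (folds up to 12.3 and 10.6). Its 3 sites with any V1 peak were all GR sites of NR astrocytes. The site at chr13:41339837-41340140 had folds of 9.88, 6.33 and 8.26 in the NR replicates, 5.20 and 5.49 in GR-con and 4.69 in DR replicate 3. Armc12 (beside Fkbp5), Dusp1, its neighbour Ergic1 and the transcription factor gene Foxp1 had 8 each. None of the Dusp1 or Foxp1 sites had a peak in V1, but the same held for 84.3% of all sites. Neighbouring genes share sites in these counts, and 643 sites (28.6%) lay within 10 kb of another.

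By position, 1099 sites were intronic (48.9%), 918 intergenic (40.8%), 163 within 500 bp of an annotated start of any gene (7.25%; called promoters here) and 68 exonic (3.02%). Their median distance to a start was 10470 bp. Vehicle-shared sites were promoters in 10.8% of cases (8.65 to 13.5), and GR sites of NR astrocytes in 45.8% (44.9 to 46.6). Promoters made up 6.05% of the highest class by fold and 8.72% of the lowest.

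A peak in any V1 library was present at 354 sites (15.7%), and 1894 had none. The share was 17.9% of vehicle-shared sites and 14.4% of regions of a single DEX library. A GR site of NR astrocytes (at least 2 of 3 libraries) covered 150, or 6.67%, close to the 7.19% of all DEX regions. A call in both GR-con libraries covered 95, or 4.23%, against 4.12%. Per library, GR peaks lay at 6.81%, 2.67% and 9.21% of the sites in NR replicates 1, 2 and 3, and at 0.178%, 0% and 0.400% in DR replicates 1, 2 and 3. The groups did not overlap.

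The mean difference between NR and DR was 6.03 percentage points (6.23% ± 3.31 against 0.193% ± 0.201, SD, n = 3 each). In the two-sided exact permutation test of libraries p = 0.1 (adjusted over the 7 tests 0.14), which is the smallest that 3 against 3 allow. The peak lists differed in length in the same direction, and the part of that difference in the result was not tested. Vehicle-shared sites had means of 8.90% in NR and 2.62% in DR, and regions of a single DEX library 6.39% and 0.0844%. The gap was therefore not particular to the DEX-dependent sites. As a share of each list's own peaks, those on the sites were 1.08%, 2.65% and 0.961% in NR and 5.80%, 0% and 3.07% in DR, so that measured this way the groups overlapped.

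Loss of the receptor gene went with fewer calls. GR-con replicates had peaks at 6.05% and 5.12% of the sites and both GR-KO replicates at 0.489% (11 sites each). The difference was 5.09 points, with p = 0.333 in the exact permutation test, the smallest that 2 against 2 allow (adjusted 0.333). GR-KO lists were also shorter, and 1.78% and 1.71% of GR-con peaks against 0.596% and 2.66% of GR-KO peaks lay on the sites. In 18 sites (0.801%) a peak was present in at least 1 GR-KO library, and 15 of these were GR sites of NR astrocytes. At least 1 GR-KO library held a peak at 2.35% of vehicle-shared sites and 0.816% of regions of a single DEX library.

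Among V1 cell types under normal rearing, NR astrocytes held GR peaks at the largest share of the sites. Inhibitory neurons had 1.73%, 0.801% and 0.578%, excitatory neurons 3.07%, 0.0445% and 1.38%, and oligodendrocytes 0.267%, 0.356% and 0%. Only NR replicate 2 (2.67%) fell below any of these 9 libraries, namely excitatory neuron replicate 1. The difference of 5.31 points (6.23% against 0.914% ± 0.999) had p = 0.0182 in the two-sided exact permutation test (adjusted 0.0318). It was 3.93 points at sites outside promoters, where the adjusted p was 0.0636, and without NR replicate 1, 2 or 3 it was 5.02, 7.09 or 3.82 points with adjusted p between 0.0636 and 0.127. At single-library DEX regions the means were 6.39% in NR astrocytes, 1.88% in excitatory neurons, 1.18% in inhibitory neurons and 0.281% in oligodendrocytes. Lists of the other cell types were shorter than those of NR astrocytes in most cases. As a share of each list's own peaks the order did not hold: 1.57% ± 0.943 in NR astrocytes, 1.68% ± 0.190 in excitatory neurons, 1.48% ± 0.574 in inhibitory neurons and 5.11% ± 4.95 in oligodendrocytes. With the best 1000 peaks of each list the means were 0.979% ± 0.0770 in NR astrocytes, 0.430% ± 0.322 in inhibitory neurons, 0.356% ± 0.271 in excitatory neurons and 0.208% ± 0.185 in oligodendrocytes, with lists below 1000 peaks used whole, and the difference was 0.647 points (exact permutation test, adjusted p = 0.0318).

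**Figure D4:**
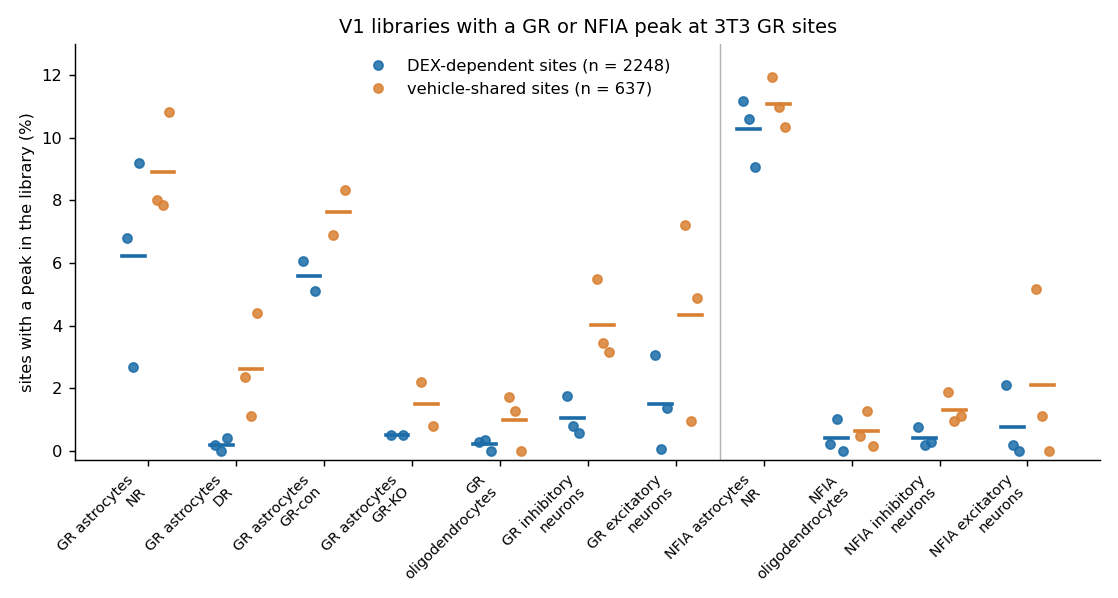
Share (%) of the 2248 DEX-dependent sites (blue) and the 637 vehicle-shared sites (orange) with a peak in each V1 library; each point is a library, each bar a group mean, GR to the left of the line and NFIA to the right. NFIA in astrocytes (9.07% to 11.2%) and GR in NR and GR-con astrocytes stand highest, and in nearly every library vehicle-shared sites lie above DEX-dependent ones.

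NFIA in astrocytes lay at 11.2%, 10.6% and 9.07% of the sites in replicates 1, 2 and 3. In oligodendrocytes it lay at 0.222%, 1.02% and 0%, in inhibitory neurons at 0.756%, 0.178% and 0.267%, and in excitatory neurons at 2.09%, 0.178% and 0%. Astrocytes stood above every other library, by 9.75 points on average (10.3% ± 1.08 against 0.524% ± 0.680), with p = 0.00909 in the exact permutation test, the smallest that 3 against 9 allow (adjusted 0.0212). Outside promoters the difference was 7.46 points (exact permutation test, adjusted p = 0.0636), and without astrocyte replicate 1, 2 or 3 it was 9.31, 9.60 or 10.4 points (adjusted p = 0.0636 each). Astrocyte NFIA lists were the longest, and as a share of own peaks the means were 0.925% ± 0.0116 in astrocytes, 0.917% ± 0.833 in excitatory neurons, 1.20% ± 0.9303 in inhibitory neurons and 1.89% ± 1.67 in oligodendrocytes. The part of list length in the difference was not tested. NFIA in astrocytes exceeded GR in NR astrocytes by 4.05 points, with NR replicate 3 (9.21%) above NFIA replicate 3 (9.07%), and this difference did not pass (exact p = 0.2, adjusted 0.233). It was 0.0890 points with the best 1000 peaks of each list, and in neurons the NFIA means (0.400% and 0.756% in inhibitory and excitatory) were the lower ones. In total 229 sites had an NFIA site in astrocytes (at least 2 of 3 libraries; 10.2%), the same share as all DEX regions (10.2%). At single-library DEX regions NFIA means were 10.5% in astrocytes, 1.23% in excitatory neurons, 0.337% in inhibitory neurons and 0.450% in oligodendrocytes.

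Where the receptor's own astrocyte sites coincided with the 3T3 sites, NFIA was nearly always there. Of the 150 with a GR site in NR astrocytes, 147 (98.0%; 94.3 to 99.3) had an NFIA site. This was close to the 95.3% of all 12458 GR sites of NR astrocytes, and conversely 64.2% of the 229 with NFIA had the GR site. Sites shared with NR astrocytes had a full GRE in 18 of 150 cases (12%; 7.73 to 18.2), against 6.25% (5.28 to 7.39) of those with no NR peak. AP-1 was rarer among them (13.3%; 8.80 to 19.7) than at sites with no NR peak (27.9%; 25.9 to 29.8). The share with a GR site of NR astrocytes did not fall with 3T3 fold (5.87%, 7.30%, 6.05% and 7.47% from the highest to the lowest class).

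Promoters were occupied across cell types far more often. Of the 163 promoter sites, 55 (33.7%; 26.9 to 41.3) were GR sites of NR astrocytes, 69 (42.3%) NFIA sites of astrocytes and 44 (27.0%; 20.8 to 34.3) had a GR peak in a neuronal library. Of the 2085 other sites these shares were 4.56%, 7.67% and 2.54%. Peaks in 10 or more of the 31 V1 libraries occurred at 36 sites, 25 of them promoters. The widest, in 17 libraries each, were the promoters of Fam72a and Ankhd1.

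Vehicle-shared sites were occupied more often in V1 than the DEX-dependent ones. Of 19 GR libraries, 18 held peaks at a larger share of vehicle-shared sites, and oligodendrocyte replicate 3, with 4 peaks in all, at neither. The mean difference, DEX-dependent minus vehicle-shared, was -2.17 points (2.09% against 4.26%; two-sided exact sign-flip permutation test over libraries, p = 7.63e-06, adjusted 5.34e-05). For NFIA, 11 of 12 libraries were lower at the DEX-dependent sites, with a mean difference of -0.819 points (2.96% against 3.78%, exact permutation p = 0.000977, adjusted 0.00342). Libraries of 1 tissue are not fully independent. All were scored on the same sites, which can recur from library to library, so these p-values do not cover the sampling of sites.

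The difference was not found away from promoters. With promoters left out it was -0.0739 points for GR (exact permutation test, adjusted p = 0.783) and turned to 0.667 points in favour of the DEX-dependent sites for NFIA (adjusted p = 0.246). At promoters, 57.97% (46.2 to 68.9) of vehicle-shared sites were GR sites of NR astrocytes, against 33.7% of DEX-dependent ones. Outside them the shares were 3.70% (2.43 to 5.59) and 4.56% (3.74 to 5.54). With the best 1000 peaks of each library the NFIA difference was also lost (-0.0656 points, exact permutation test, adjusted p = 0.604).

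A small group of sites was called in all 3 NR and both GR-con libraries. It held 46 sites (2.05%, against 4.71% of vehicle-shared sites and 1.66% of regions of a single DEX library), 24 of them promoters; each had an NFIA site in astrocytes, 4 had a full GRE, 7 a peak in some DR library, 18 a GR peak in neurons, and 37 had no GR-KO peak. The 4 with a full GRE were Per1, printed above, and the following, in the same layout.
Wdr95 (chr5:149567161-149567221): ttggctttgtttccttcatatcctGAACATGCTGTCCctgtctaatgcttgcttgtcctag
Lpp (chr16:25059368-25059428): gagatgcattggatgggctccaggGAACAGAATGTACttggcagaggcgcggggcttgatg
Fam107a (chr14:8309861-8309921): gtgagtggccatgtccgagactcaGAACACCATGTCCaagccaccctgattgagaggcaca

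Per1 led these in V1, with GR folds of 15.5, 7.55 and 26.4 in the NR replicates and 16.2 and 17.97 in GR-con. No peak was present in DR or GR-KO, and NFIA reached 51.4, 38.7 and 27.3 in astrocytes. Hif3a had 18.1, 6.40 and 37.3 in NR, 8.34 and 14.7 in GR-con, none in DR or GR-KO, and 33.4, 44.3 and 32.2 for NFIA. Fam107a, a gene strongly expressed by astrocytes and induced by glucocorticoids, was weak in 3T3 cells (rank 1365 of the sites) but had 7.89, 5.31 and 19.5 in NR and 7.004 and 5.98 in GR-con, again with none in DR or GR-KO. At these 3 loci no DR or GR-KO library held a peak, but this did not hold for all sites with the same NR and GR-con calls. Of the 46, 7 had a DR peak and 9 a GR-KO peak. Lpp, printed above, had a fold of 7.25 in DR replicate 3.

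The other highest-ranked sites of this group were in Sept9, Trpm3, Wdr95 and Edc3, at the start of Bsdc1, at A230028O05Rik (nearest protein-coding gene Lpp), and near Plxnc1 and Irf2bp2. NR folds over these ranged from 2.34 (Bsdc1) to 36.2 (Trpm3). Trpm3, a cation channel gene, was the only 1 of the 10 highest-ranked with a GR-KO peak. Its intronic site (chr19:22916642-22916937) had 12.1, 7.55 and 36.2 in NR and 16.01 and 13.97 in GR-con, but also 5.25 and 8.23 in both GR-KO libraries and 7.47 in DR replicate 3. NFIA folds there were 84.7, 73.4 and 37.8.

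Of the 18 sites with a GR-KO peak, the next ranked were Zbtb16, Dclk1, Lgalsl, Spred2 and Ptn. Zbtb16, a zinc finger gene known as a glucocorticoid target, had 16.8 in GR-KO replicate 2 and none in replicate 1, beside 4.80 and 10.7 in GR-con, and this site, 98351 bp from the start and weaker in 3T3 cells (6.46 and 11.7) than the 1 above, held a full GRE. Dclk1 had 3.52 and 6.26 in GR-KO against 6.52 and 7.02 in GR-con. Folds depend on each library's depth and control, so they rank peaks within a list and were not tested between lists. Tsc22d3 was called in NR replicates 1 and 3 (5.17 and 13.3) and both GR-con libraries (14.01 and 9.10), and in none of DR and GR-KO.

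**Figure D5:**
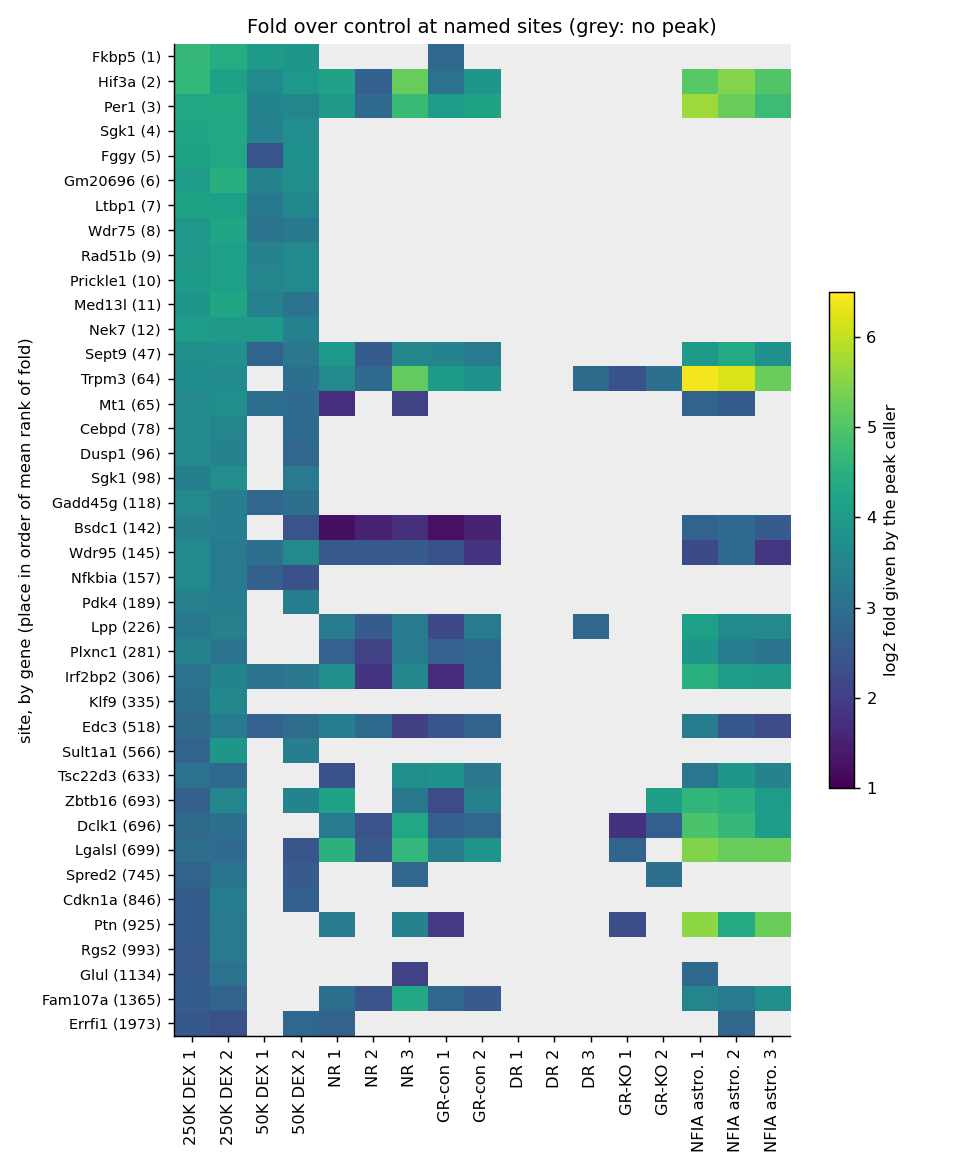
Fold over control on a log2 colour scale at the named sites (rows, by gene, with their place in the order of mean rank) in the 3T3 DEX libraries, GR libraries of astrocytes and NFIA libraries of astrocytes; grey means no peak. Of the 12 highest-ranked 3T3 sites, all but Fkbp5, Hif3a and Per1 are grey in every astrocyte column, with Hif3a and Per1 called in all NR, GR-con and NFIA astrocyte libraries and Trpm3 also in both GR-KO libraries.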

How the data were processed

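GR and NFIA CUT&RUN peak lists of 39 of 50 samples were used, and the other 11 left out. Per the methods and processing notes, the authors used cutadapt for trimming, Bowtie2 for alignment (mm10), Picard and SAMtools for duplicates and mapping quality, deepTools to select short fragments, and MACS2 with an IgG control to call peaks in each library. The deposited columns are a fold over control (a ratio) and −log10 p and q values. The highest q was 0.0498 in 3T3 lists and under 0.01 in V1 lists.

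Groups and replicates follow the labels. An overlap of 1 bp counted as shared. Libraries were compared by two-sided exact permutation, 7 tests with Benjamini-Hochberg adjustment and a threshold of 0.05; 3T3 cultures are not described as separate, so p reflects spread among these samples, possibly technical. Motifs were read from GRCm38.p6, the assembly of mm10, and genes from GENCODE M21; all 208 listed genes in 11 lists matched, Ctgf and Cyr61 as Ccn2 and Ccn1. Sites named were the 12 highest by mean rank of fold, the best site near each target or list gene, and the highest-ranked with a full GRE, with all NR and GR-con calls or with a GR-KO peak; others were chosen after their values were seen. Members, lists and tests were chosen with earlier results of these data known. Site selection was tested on simulated data. Alternatives varied the q threshold, overlap, vehicle distance, promoters, list length, window and libraries. Python 3.11.15, numpy 2.4.6, pandas 2.3.3, scipy 1.17.1 and pysam 0.24.0 were used.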

Additional observations from a re-analysis of the deposited data

How the results depend on the processing

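Stricter 3T3 calls (q 0.01), summit overlap and a vehicle distance of 1 kb changed no call. At sites outside promoters, GR in NR astrocytes against other V1 cell types fell to 3.93 points and NFIA to 7.46 points, both past the threshold no longer; the difference from vehicle-shared sites was -0.0739 points for GR and 0.667 points, reversed, for NFIA. With the best 1000 peaks the NFIA value was -0.0656 points and that for GR -1.07, while NR against DR, GR-con against GR-KO, and GR and NFIA against other cell types gave 0.786, 0.712, 0.647 and 0.796 points, on the same side of the threshold as before. Lists below 1000 peaks, among them all 3 DR lists (28 to 293 peaks), were used whole, so this setting did not make list lengths equal. The causes were not tested beyond the shares given at promoters. Leaving out 1 library at a time gave 4.54 to 7.81 points for NR against DR, 4.63 to 5.56 for GR-con against GR-KO, 3.82 to 7.09 for GR and 9.31 to 10.4 for NFIA against other cell types, 2.27 to 5.54 for NFIA against GR, -2.29 to -2.00 for GR and -0.893 to -0.612 for NFIA against vehicle-shared sites; fewer libraries raise the smallest possible p.

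With the replicate block (same-numbered libraries paired, sign-flip), the differences were 6.03 points (NR against DR), 5.09 (GR-con against GR-KO), 5.31 and 9.75 (GR and NFIA against other cell types) and 4.05 (NFIA against GR), with exact p of 0.25, 0.5, 0.25, 0.25 and 0.5; 3 pairs cannot go below 0.25. Correlations between the deviations of same-numbered libraries were -0.10 to 0.03 in the 3 pairs of groups checked. These values cannot show whether such libraries share a batch. The DR libraries held peaks at only 4, 0 and 9 of the sites. The GR-con and GR-KO values, 0.0343 or -0.0343, can differ only in sign with so few libraries.

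Using a single DEX library gave 3907 sites (without replicate 1) or 4231 (without replicate 2), and leaving out a vehicle library 2258 to 2498; the share with a 50000-nucleus DEX peak was then as low as 15.6%, and with a single 50000-nucleus library 19.3% or 35.3%. A window of 201 bp gave a full GRE at 8.94% of sites and 0.628% of vehicle-shared sites, and a promoter of 2000 bp took in 16.9%. The glucocorticoid target count (19 of 30) was 13 within 10 kb, 23 within 100 kb and 19 at q 0.01. It stayed within 1.5 times in all 3 alternatives. The share of all protein-coding genes with a site moved more, to 3.08%, 16.6% and 9.52% in these settings. The lists' unknown read depth limits every share.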
